A study of Mus musculus with 12 samples.

Results

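The array carried 130 probes for 73 genes of the cadherin and protocadherin family, of 41174 probes and 21197 gene names in all. They were chosen by the gene name in the scanner tables and not by a cutoff on their values, though earlier results of these data were known. Taken were every Cdh gene with a number, every Pcdh gene with a number or with the letter a, b or g, Celsr1 to Celsr3, Fat1 and Fat4. By these names 23 genes (44 probes) were Cdh genes, 33 (45 probes) were clustered protocadherins of the Pcdha, Pcdhb and Pcdhg clusters, 12 (29 probes) were other protocadherins, and 5 (12 probes) were Celsr and Fat genes. Of the 130 probes, 103 carried a RefSeq accession that the gene table of assembly GRCm38.p6 also holds, and all 103 had the same symbol there.

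RNA came from cultures of mouse embryonic stem (ES) cells, which are pluripotent and derive from the early embryo. One group was left undifferentiated. The other received retinoic acid, a form of vitamin A that acts through nuclear receptors, over 3 days. Each group had 3 biological samples with 2 technical arrays each, 12 arrays in all, labelled with 1 dye (Cy3). The labels name no strain, genotype, cell line, dose or feeder layer, and do not say whether replicates were separate cultures, so p-values measure only the spread between these samples.

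Cadherins are membrane proteins that hold cells together through calcium-dependent binding of their extracellular repeats, mostly to the same cadherin on the next cell. Classical cadherins (type I, such as E-cadherin and N-cadherin, and type II) bind catenins inside the cell and so reach the actin cytoskeleton, and in the embryo a change from E-cadherin to N-cadherin accompanies the formation of mesoderm and of the neural plate. Protocadherins lack the catenin-binding tail. The clustered ones are encoded by 3 neighbouring gene clusters in which each variable exon has its own promoter, the alpha and gamma variable exons are spliced to shared constant exons, and a neuron transcribes its own choice of them. Celsr proteins are 7-pass cadherins of planar cell polarity, and Fat proteins are giant cadherins that act in growth control and tissue polarity.

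Values are log2 of the net intensity after quantile normalization between arrays and the addition of 50, averaged over the 2 technical arrays, so an intensity of 0 gives 5.64 and changes of dim probes are understated. The background limit of an array was the 95th percentile of its 27 negative control spots, and a probe was tested when at least 4 of the 6 arrays of one group or the other exceeded it. Each gene was represented by its probe with the highest mean signal. Differences are retinoic acid minus undifferentiated, ± the standard error of the limma fit on 3 samples per group, and a gene was called higher or lower at a Benjamini-Hochberg adjusted p under 0.05 over all 26587 tested probes.

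Of the 73 genes, 43 were tested. Of these, 9 were called higher (Cdh2, Cdh20, Pcdhga9, Pcdhac2, Pcdhb22, Pcdh19, Pcdh18, Pcdh7 and Celsr2), 2 were called lower (Cdh11 and Celsr3) and 32 were not called. That is 25.6% of the tested members, beside 30% of all 15328 tested genes, of which 17.6% were called higher and 12.3% lower. The 2 groups did not overlap for 15 of the 43 members (34.9%), against 46.6% of all tested genes. The median difference of the tested members was 0.08, and that of all tested genes was 0.00. The share of called members is near the background and is no result about the family. Of the 43, 16 passed the filter only through the retinoic acid arrays and 3 only through the undifferentiated arrays, a selection that by itself favours differences in the direction of the brighter group. The remaining 30 genes were too dim to test, 3 of them below the limit on all 12 arrays. All 15 called member probes (13 higher, 2 lower; of all tested probes 25.5% were called, 14% higher and 11.5% lower) kept their direction and their call when arrays were scaled to their 75th percentile or to their median. These are bulk samples, in which fewer cells of a type and less RNA per cell cannot be told apart.

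**Figure D1:**
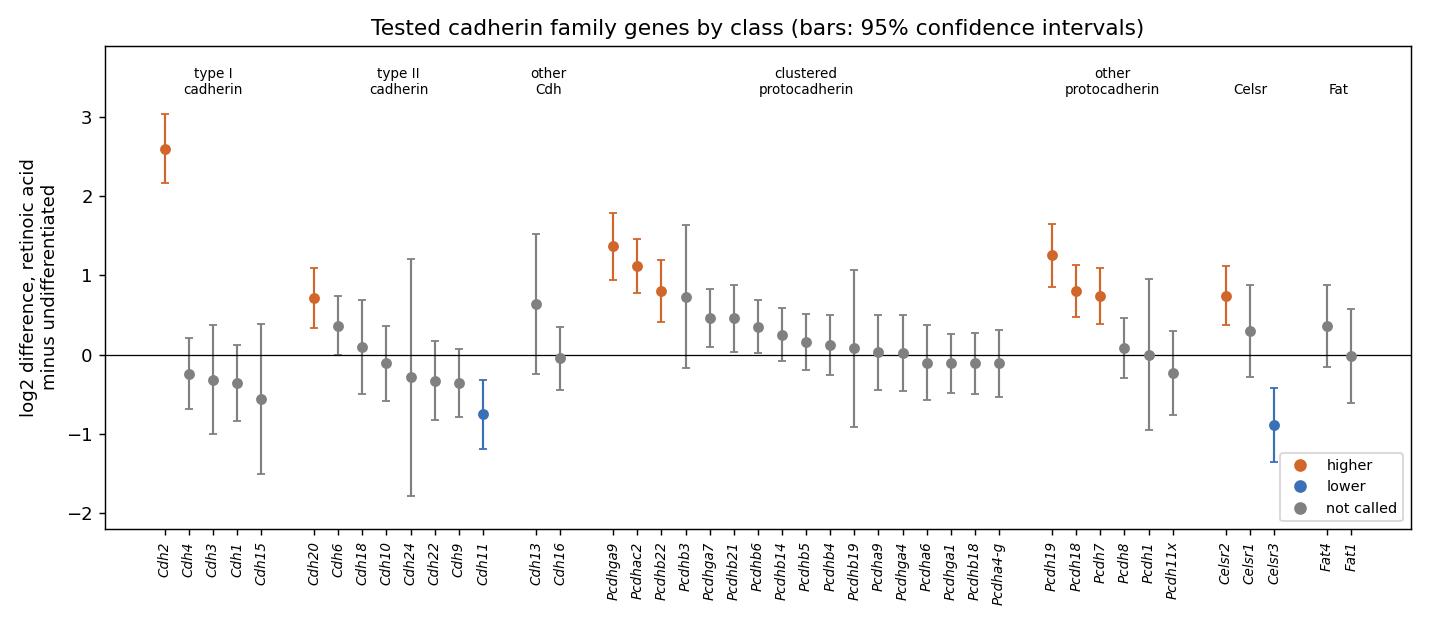
Log2 difference (retinoic acid minus undifferentiated, vertical axis) of the brightest probe of each of the 43 tested genes, grouped by class on the horizontal axis; bars are 95% confidence intervals of the limma fit on 3 samples per group, orange marks genes called higher, blue lower and grey not called. Cdh2 stood at 2.60, the called protocadherins lay between 0.74 and 1.37, and Cdh11 (-0.75) and Celsr3 (-0.89) lay below 0.

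Among the 5 type I classical cadherins, all tested, N-cadherin rose and the other 4 were not called. Cdh2 encodes N-cadherin, the main classical cadherin of neural and mesenchymal cells. Its brightest probe read 6.24, 6.25 and 6.21 in undifferentiated replicates 1, 2 and 3 and 9.20, 8.65 and 8.66 in the retinoic acid replicates. The undifferentiated samples sat close together and near the floor, with 3 of 6 arrays above the limit, and every retinoic acid sample lay far above them. The difference was 2.60 ± 0.19 (adjusted p = 9.86e-05). A second Cdh2 probe, on another transcript, was above the limit on 0 undifferentiated and 4 retinoic acid arrays. It read 5.85, 5.73 and 5.82 against 6.11, 6.27 and 6.29, without overlap, and its difference of 0.42 ± 0.14 missed the threshold (adjusted p = 0.0687). The third probe was too dim to test.

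Cdh1 encodes E-cadherin, the adhesion molecule of epithelia and of undifferentiated ES cells. It read 12.39, 12.19 and 12.88 in the undifferentiated samples and 12.09, 12.05 and 12.25 after retinoic acid. The groups overlapped through the retinoic acid sample of replicate 3, which exceeded undifferentiated replicate 2. The difference of -0.36 ± 0.21 was not called (adjusted p = 0.25; 95% interval -0.84 to 0.12). With arrays scaled to their 75th percentile it was -0.72 (adjusted p = 0.0226) and with median scaling -0.69 (adjusted p = 0.0374), both called lower. Over all 23 alternatives the difference ran from -0.72 to -0.16 and the adjusted p from 0.0226 to 0.536. On every array of both groups Cdh1 was above the background limit, whereas Cdh2 was so on 3 of 6 undifferentiated arrays.

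Cdh3 encodes P-cadherin, an epithelial and placental cadherin, and is the neighbour of Cdh1 on chromosome 8 in the RefSeq table. It read 9.25, 8.57 and 8.39 against 8.61, 7.92 and 8.75, and the groups overlapped widely (-0.32 ± 0.30, adjusted p = 0.488). Cdh4 encodes R-cadherin, first known from the retina. It read 7.69, 7.91 and 7.28 against 7.39, 7.47 and 7.29, again with overlap (-0.24 ± 0.19, adjusted p = 0.413), and its second tested probe gave the same difference, -0.24. Cdh15 encodes M-cadherin of skeletal muscle. It was above the limit on all 12 arrays, and undifferentiated replicate 1 stood apart at 8.40, on both of its technical arrays (8.64 and 8.16), from the other 5 samples at 6.67 to 6.92. Its difference of -0.56 ± 0.41 was not called (adjusted p = 0.366). Of the 6 skeletal muscle markers examined beside it, 2 were tested and none was called by limma (0 at an unadjusted p under 0.05), their summed net intensity was 263 to 292 in the undifferentiated and 166 to 282 in the retinoic acid samples, and Myf5 was below the limit on all 12 arrays. The part of muscle-like cells in the Cdh15 reading was not tested.

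Of the 13 type II classical cadherins, 8 were tested, and 1 was called higher, 1 lower and 6 not. Cdh11 encodes OB-cadherin of mesenchyme and bone. Its brightest probe fell, from 10.20, 9.83 and 10.26 in the undifferentiated samples to 9.23, 9.59 and 9.20. The groups did not overlap, though undifferentiated replicate 2 and retinoic acid replicate 2 came close to each other (-0.75 ± 0.19, adjusted p = 0.0233). The other 2 Cdh11 probes, on the same RefSeq transcript, rose. The second read 5.92, 6.03 and 6.05 in the undifferentiated samples and 6.96, 6.78 and 7.25 after retinoic acid (1.002 ± 0.17, adjusted p = 0.00453). The third read 6.03, 5.77 and 5.88 against 6.90, 6.70 and 6.78 (0.90 ± 0.15, adjusted p = 0.00449). Both were above the limit on all 6 retinoic acid arrays and on 2 and 1 undifferentiated arrays. Cdh11 was the 1 member gene with calls in both directions, so no single direction can be given for the gene. Leaving out undifferentiated replicate 1, undifferentiated replicate 3, retinoic acid replicate 1 or retinoic acid replicate 3 ended the call of the brightest probe (adjusted p = 0.0792, 0.0573, 0.0934 and 0.101), while both rises kept theirs under each of 19 alternatives.

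Cdh20, a type II cadherin of the developing neural tube, rose from near the floor. It read 6.03, 6.09 and 5.98 in the undifferentiated samples, with 2 of 6 arrays above the limit, and 6.98, 6.57 and 6.71 after retinoic acid, with 6 of 6. No sample of one group reached the other (0.72 ± 0.16, adjusted p = 0.0155). Leaving out undifferentiated replicate 1, retinoic acid replicate 1 or retinoic acid replicate 3 ended the call (adjusted p = 0.0509, 0.0720 and 0.0597; range over 21 alternatives 0.00257 to 0.0720). Its second probe was too dim to test.

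The 6 type II genes that were tested and not called had differences from -0.36 to 0.36. Cdh6 (K-cadherin, of kidney and neural crest) did not overlap between groups, at 5.97, 5.98 and 6.29 against 6.34, 6.43 and 6.56 (0.36 ± 0.16, adjusted p = 0.141). It was called higher with 1 in place of 50 added before the logarithm (1.15, adjusted p = 0.0296), with 10 added (0.82, adjusted p = 0.0463) and with technical array 1 alone (0.54, adjusted p = 0.0366). Cdh24 was the most scattered, at 7.74, 8.90 and 6.73 against 8.70, 6.96 and 6.84 (-0.29 ± 0.64, adjusted p = 0.791). The 2 technical arrays of its retinoic acid replicate 1 read 7.69 and 9.71. Cdh22 (-0.33), Cdh10 (-0.11), Cdh9 (-0.36) and Cdh18 (0.09) were also not called. Cdh5 encodes VE-cadherin, the cadherin of blood vessel endothelium. Neither of its 2 probes was tested: the brighter one read 5.69 to 5.93 in all 6 samples and was above the limit on 1 undifferentiated and 0 retinoic acid arrays. Of 7 endothelial markers, 5 were tested, Flt1 was called higher and Esam lower, and the summed net intensity of the 7 was 389 to 469 undifferentiated and 466 to 542 after retinoic acid. Of the 5 Cdh genes outside both classical classes, 2 were tested. T-cadherin (Cdh13, anchored by a lipid and without a cytoplasmic tail) differed by 0.64 ± 0.38 (adjusted p = 0.268), with technical arrays of retinoic acid replicate 1 at 6.42 and 9.20, and Cdh16 of kidney by -0.05. Cdh17, Cdh23 and Cdh26 were too dim to test.

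**Figure D2:**
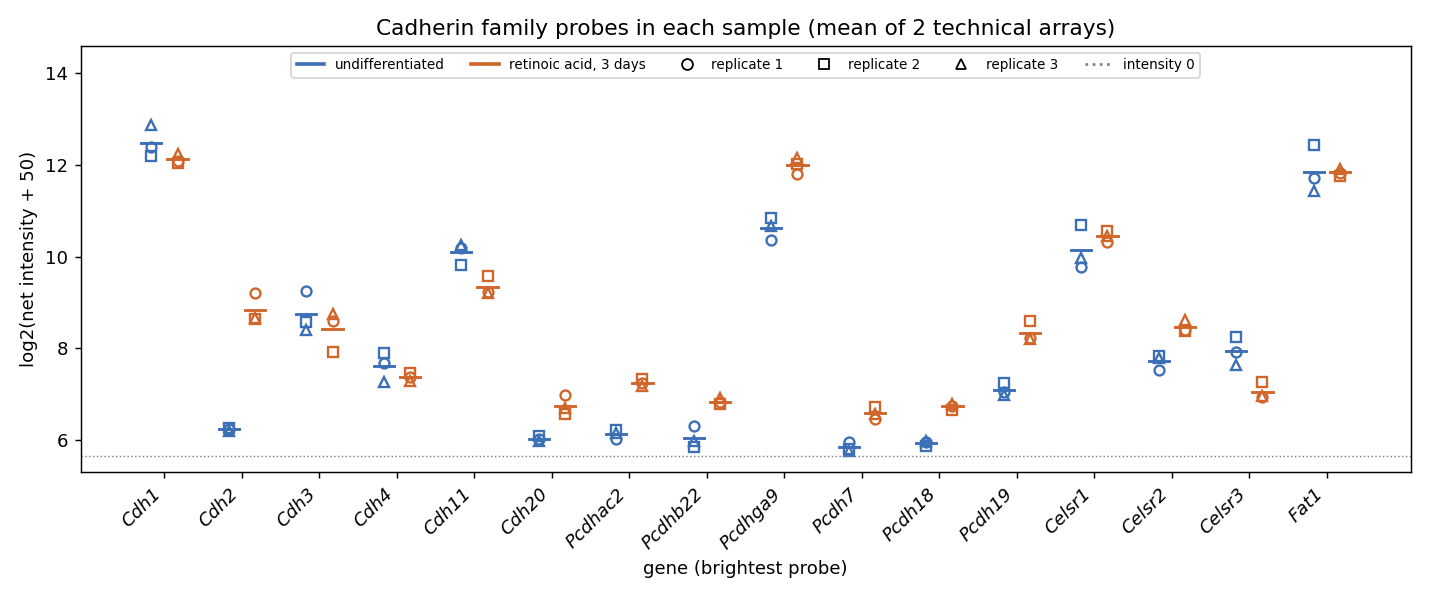
Log2(net intensity + 50) (vertical axis) of the brightest probe of 16 family genes (horizontal axis) in each sample, averaged over 2 technical arrays; blue is undifferentiated, orange retinoic acid for 3 days, the symbol gives the replicate, short lines are group means and the dotted line is an intensity of 0. Cdh2, Cdh20, the protocadherins shown and Celsr2 had all orange points above all blue ones, Cdh11 and Celsr3 the reverse, and Cdh1, Cdh3, Cdh4, Celsr1 and Fat1 overlapped.

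The RefSeq table held promoters for 26 of the 73 genes (29 promoters), among them 6 of the 11 called genes. The 250 bases upstream of the annotated start of these 6 are printed, since their transcripts moved and the question is whether they share a motif. They were searched on both strands for AGGTCA (the half-site bound by retinoic acid receptors), its variant AGTTCA, the E-box CACCTG bound by Snail, Zeb and Twist type factors, the GC box GGGCGG and the TATA box TATAAA, and matches are in capitals. The motifs occur in 14.02%, 11.8%, 17.2%, 32.7% and 12.4% of all 32851 promoters of the same length, and in 1, 5, 5, 10 and 2 of the 29 family promoters. The promoter of Cdh20 (GRCm38.p6, chr1:104768270-104768519, + strand) held none of them. No motif of the 5 occurred in all 6 windows.
Cdh20: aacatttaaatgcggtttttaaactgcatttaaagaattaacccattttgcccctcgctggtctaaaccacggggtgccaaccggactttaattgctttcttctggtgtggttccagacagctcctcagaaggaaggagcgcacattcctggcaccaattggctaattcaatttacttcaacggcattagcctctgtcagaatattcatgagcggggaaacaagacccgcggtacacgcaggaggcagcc

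The 33 clustered protocadherin genes are described apart from the classical ones. Of the 17 that were tested, 3 were called higher, 1 in each cluster (Pcdhac2, Pcdhb22 and Pcdhga9), and none lower (0 also at an unadjusted p under 0.05, where limma had 6 higher). That is 17.6% of the 17, the share that was also called higher over all tested genes. The median difference of the 17 was 0.16, beside 0.00 for all tested genes. Above 0 lay 13 of the 17, and 50.3% of all tested genes. Among the 15 tested Cdh genes 5 lay above 0, with a median of -0.24. Of the 17, 9 passed the filter only through the retinoic acid arrays and 0 only through the undifferentiated arrays.

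Pcdhac2, a C-type isoform at the end of the alpha cluster, read 6.03, 6.22 and 6.15 in the undifferentiated samples and 7.24, 7.34 and 7.18 after retinoic acid. Each retinoic acid sample lay about 1 log2 unit above every undifferentiated one (1.12 ± 0.14, adjusted p = 0.00133). A second probe on the same transcript gave 6.12, 6.15 and 6.08 against 7.23, 7.23 and 7.01 (1.04 ± 0.15, adjusted p = 0.00194), and the third gave 0.26 ± 0.17 (adjusted p = 0.309). Transcripts of the alpha cluster share constant exons, and where a probe lies is not given. A probe in the shared exons would read every alpha transcript together, so which alpha transcripts each probe reads was not settled. The probes of the other tested alpha genes stayed close to 0. Pcdha4-g read 7.56, 7.96 and 7.47 against 7.42, 7.58 and 7.65 (-0.11 ± 0.18, adjusted p = 0.7), Pcdha6 differed by -0.10 and Pcdha9 by 0.03, none of them called, and Pcdha4 was below the limit on all 12 arrays.

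In the beta cluster each gene is a single exon with no shared constant exons. Pcdhb22 is the last beta gene before the gamma cluster. It read 6.30, 5.85 and 5.98 against 6.82, 6.79 and 6.91, and the sample means did not overlap (0.80 ± 0.17, adjusted p = 0.0117). The technical arrays of undifferentiated replicate 1 disagreed, at 5.776 and 6.829. The higher of them lay within the range of the retinoic acid arrays (6.763 to 6.945). Pcdhb22 was above the limit on 2 of 6 undifferentiated and 6 of 6 retinoic acid arrays. The call was lost without retinoic acid replicate 3 (adjusted p = 0.0589), on technical array 2 alone (0.55, adjusted p = 0.159) and with all 12 arrays and the sample as a random block (adjusted p = 0.328); over 22 alternatives the adjusted p ran from 0.00178 to 0.328. Its neighbour Pcdhb21 read 5.89, 6.05 and 6.36 against 6.35, 6.61 and 6.71, which just overlapped (0.46 ± 0.18, adjusted p = 0.11). Pcdhb6 did not overlap, at 5.98, 5.80 and 5.82 against 6.17, 6.17 and 6.31 (0.35 ± 0.14, adjusted p = 0.119), and was called higher by eBayes with trend and robust settings (adjusted p = 0.0389).

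Of all 22 beta genes, tested or not, 17 had a difference above 0, with a median of 0.11 and a range from -0.21 to 0.80. Over all tested genes 50.3% had a difference above 0, a share that leaves out the dim genes. For 13 of the 22 beta genes the signal was too dim for a test, so most of these differences are between values near the floor. Of the 9 tested, 8 passed the filter only through the retinoic acid arrays, a selection that by itself favours differences above 0. Pcdhb3 had the next largest difference, 0.73 ± 0.39 (adjusted p = 0.217), from 5.65, 6.77 and 5.87 against 7.51, 6.23 and 6.73. Its high undifferentiated value came from 1 technical array (7.89) while the other array of that sample read 5.64. The array that read 7.89 is the one whose header carries the name of the other array of its sample. Without that array Pcdhb3 was called higher (1.11, adjusted p = 0.0333). With 1 in place of 50 added before the logarithm, 7 clustered genes were called higher (the 3 above with Pcdhb3, Pcdhb6, Pcdhb21 and Pcdhga7), with 10 added 6 (without Pcdhb3), and with technical array 1 alone 5 (the 3 with Pcdhb3 and Pcdhb21).

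Pcdhga9 gave the largest clustered difference. Its brightest probe read 10.37, 10.85 and 10.67 in the undifferentiated samples and 11.81, 12.02 and 12.16 after retinoic acid, all 3 above every undifferentiated value (1.37 ± 0.18, adjusted p = 0.00159). A second probe read 10.46, 10.75 and 10.09 against 11.45, 11.36 and 11.49, likewise apart (1.0003 ± 0.19, adjusted p = 0.00823). The third tested probe read 6.89, 6.72 and 7.12 against 7.01, 6.71 and 7.06 and showed no such shift (0.02 ± 0.18, adjusted p = 0.953; 95% interval -0.39 to 0.43). The fourth was too dim to test. All 4 carry the accession of Pcdhga9. Transcripts of the gamma cluster share their last exons, and the files do not say where in the transcript a probe lies, so a probe in the shared exons would read every gamma transcript together. The other gamma genes tested were Pcdhga7 at 6.38, 6.64 and 6.30 against 6.79, 6.96 and 6.97 (0.46 ± 0.16, adjusted p = 0.0704, no overlap), Pcdhga4 (0.02) and Pcdhga1 (-0.11). Pcdhga7, read by 1 probe, was also called higher at the same difference when genes entered the fit as probe means (adjusted p = 0.0393). It was so too with all 12 arrays and the sample as a random block (adjusted p = 0.0336) and without undifferentiated replicate 2 (0.56, adjusted p = 0.0351).

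**Figure D3:**
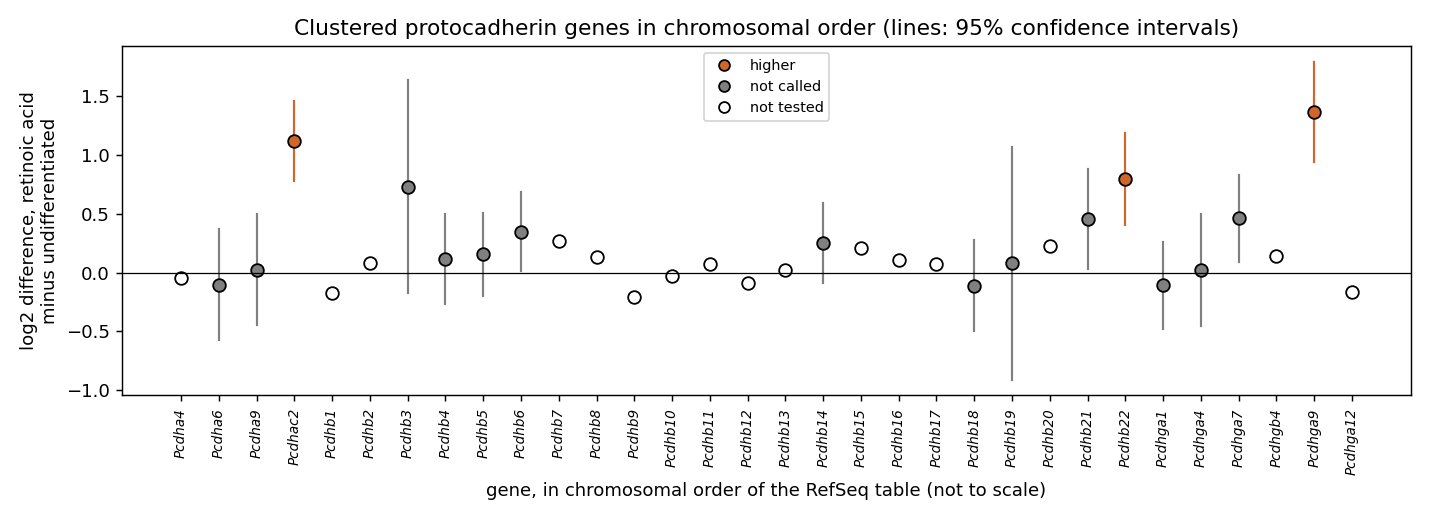
Log2 difference, retinoic acid minus undifferentiated (vertical axis), of the brightest probe of 32 clustered protocadherin genes in their chromosomal order in the RefSeq table (horizontal axis, not to scale); orange points were called higher, grey not called, open points were too dim to test, and lines are 95% confidence intervals. The called genes are Pcdhac2 (1.12), Pcdhb22 (0.80) and Pcdhga9 (1.37), and most beta genes lie between -0.21 and 0.46.

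Outside the clusters, 6 of the 12 other protocadherin genes were tested, and 3 of them rose, with 0 called lower by limma (0 at an unadjusted p under 0.05). Of the 6, 2 (Pcdh18 and Pcdh7) passed the filter only through the retinoic acid arrays, where they were brighter, and 1 (Pcdh11x) only through the undifferentiated arrays, so the share of the 6 that rose is not set against that of all genes. Pcdh19, whose human counterpart is a gene of X-linked epilepsy, read 7.04, 7.24 and 6.99 in the undifferentiated samples and 8.22, 8.60 and 8.21 after retinoic acid. It was above the limit on all 12 arrays and the groups were almost 1 log2 unit apart (1.25 ± 0.17, adjusted p = 0.00181). A second Pcdh19 probe, on another RefSeq transcript, read 6.31, 6.66 and 6.40 against 6.25, 6.52 and 6.61 and did not move (0.00 ± 0.17, adjusted p = 0.996; 95% interval -0.40 to 0.40). Pcdh18, a relative of Pcdh19 within the delta protocadherins, read 5.95, 5.87 and 5.98 against 6.75, 6.67 and 6.78. The samples of each group sat close together and the groups well apart (0.80 ± 0.14, adjusted p = 0.00507), and the probe was above the limit on 1 of 6 undifferentiated and 6 of 6 retinoic acid arrays.

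Pcdh7 encodes a delta protocadherin first described in brain and heart. Its brightest probe read 5.96, 5.81 and 5.76 against 6.46, 6.72 and 6.57. That probe was not above background on any undifferentiated array and was so on 5 of 6 retinoic acid arrays (0.74 ± 0.15, adjusted p = 0.0102), at least 2.21-fold higher when the undifferentiated signal is taken at the lowest signal above the limit. With all 12 arrays and the sample as a random block the adjusted p was 0.0565, and over 21 alternatives it ran from 0.00181 to 0.0565. The other Pcdh7 probe, on another RefSeq transcript, was above the limit on 1 undifferentiated and 1 retinoic acid array and was too dim to test; it read 5.83, 5.95 and 5.93 against 5.81, 5.85 and 6.29, with overlap and a difference of 0.08. Pcdh1, an epithelial protocadherin, read 10.36, 11.56 and 9.98 against 11.14, 10.42 and 10.34, and its samples scattered as much within as between groups (0.00 ± 0.41, adjusted p = 0.999; 95% interval -0.96 to 0.96). Pcdh8 (0.08; the mouse homologue of paraxial protocadherin) and Pcdh11x (-0.24) were not called. Pcdh9, Pcdh10, Pcdh12, Pcdh15, Pcdh17 and Pcdh20 had no probe bright enough for a test.

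The promoters of the 3 rising genes differ in their motifs. The Pcdh7 window (chr5:57717831-57718080, + strand) held AGTTCA or its reverse complement at 2 places and no other motif of the search. The Pcdh18 window (chr3:49757317-49757566, - strand) held 1 GC box, and the Pcdh19 window (chrX:133688994-133689243, - strand) held 1 AGTTCA and 1 GC box. AGGTCA and TATAAA were in none of the 3.
Pcdh7: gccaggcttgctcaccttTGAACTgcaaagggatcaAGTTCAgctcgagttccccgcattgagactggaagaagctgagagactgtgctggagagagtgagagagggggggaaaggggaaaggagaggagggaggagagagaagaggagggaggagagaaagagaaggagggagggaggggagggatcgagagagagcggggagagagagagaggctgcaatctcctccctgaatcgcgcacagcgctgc
Pcdh18: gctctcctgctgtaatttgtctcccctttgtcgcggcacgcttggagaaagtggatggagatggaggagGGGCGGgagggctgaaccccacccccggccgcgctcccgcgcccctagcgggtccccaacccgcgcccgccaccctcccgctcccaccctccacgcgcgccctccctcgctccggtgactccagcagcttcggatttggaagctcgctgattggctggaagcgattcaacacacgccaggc
Pcdh19: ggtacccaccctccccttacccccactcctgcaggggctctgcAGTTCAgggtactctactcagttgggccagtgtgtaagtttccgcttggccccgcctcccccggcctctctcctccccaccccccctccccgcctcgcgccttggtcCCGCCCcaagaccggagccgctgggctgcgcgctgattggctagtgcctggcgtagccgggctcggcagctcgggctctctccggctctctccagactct

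The 3 Celsr genes are the mammalian counterparts of the fly polarity gene flamingo, and 1 of them rose, 1 fell and 1 was not called. Celsr2 read 7.53, 7.84 and 7.79 in the undifferentiated samples and 8.40, 8.38 and 8.61 after retinoic acid, with all 3 retinoic acid samples higher (0.74 ± 0.16, adjusted p = 0.0128). Its second probe, on another accession, read 6.57, 7.44 and 6.80 against 6.55, 6.91 and 6.74 (-0.21 ± 0.24, adjusted p = 0.59). The third, on the accession of the first, read 6.13, 6.42 and 6.56 against 6.93, 6.72 and 6.94 without overlap (0.49 ± 0.17, adjusted p = 0.073). The mean of the 3 probes differed by 0.34 and was not called (adjusted p = 0.133), nor was the brightest probe without retinoic acid replicate 3 (0.67, adjusted p = 0.0682; range over 23 alternatives 0.00162 to 0.59). Celsr3, which guides axons in the brain, fell from 7.92, 8.26 and 7.64 to 6.93, 7.26 and 6.96. The lowest undifferentiated sample stayed above the highest retinoic acid sample (-0.89 ± 0.20, adjusted p = 0.0158). The call ended when any of undifferentiated replicate 1, retinoic acid replicate 1 and retinoic acid replicate 3 was left out (adjusted p = 0.0509, 0.0686 and 0.0699). Over 22 alternatives the adjusted p ran from 0.00183 to 0.0699. A second Celsr3 probe, on the same transcript, was too dim to test. It was above the limit on 2 undifferentiated arrays and 1 retinoic acid array, and its groups overlapped (difference -0.05).

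Celsr1, the family member of epithelial polarity, read 9.78, 10.70 and 9.97 against 10.33, 10.55 and 10.46. The 3 retinoic acid samples lay inside the range of the undifferentiated ones, of which replicate 2 was high on both technical arrays (10.69 and 10.71), and the difference was not called (0.30 ± 0.25, adjusted p = 0.431). Without that sample it was 0.57 and called higher (adjusted p = 0.039; range over 23 alternatives 0.039 to 0.801). Fat1 showed the same high sample, at 11.72, 12.43 and 11.43 against 11.83, 11.77 and 11.92 (-0.02 ± 0.26, adjusted p = 0.97). A second Fat1 probe on the same transcript was high in undifferentiated replicate 1 instead, at 9.46, 7.87 and 7.83 against 8.51, 7.65 and 9.20 (0.07 ± 0.52, adjusted p = 0.945). Fat4, a receptor for Dachsous cadherins, read 6.64, 6.26 and 5.81 against 6.67, 6.48 and 6.65 and was above the limit on 2 of 6 undifferentiated and 6 of 6 retinoic acid arrays (0.36 ± 0.22, adjusted p = 0.288). The share of G and C was 75.2% in the window upstream of Celsr2 and 58.0% in that of Celsr3. The median over all promoters was 52.4%, and the window of Cdh22, which was not called, had 77.6%. The Celsr2 window (chr3:108415580-108415829, - strand) held 2 E-boxes, both as CAGGTG, and that of Celsr3 (chr9:108825795-108826044, + strand) held 2 GC boxes.
Celsr2: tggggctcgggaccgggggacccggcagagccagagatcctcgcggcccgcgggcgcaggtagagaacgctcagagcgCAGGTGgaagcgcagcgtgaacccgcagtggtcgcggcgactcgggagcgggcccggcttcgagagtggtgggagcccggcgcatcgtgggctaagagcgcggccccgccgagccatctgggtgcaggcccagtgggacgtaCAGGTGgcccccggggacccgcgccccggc
Celsr3: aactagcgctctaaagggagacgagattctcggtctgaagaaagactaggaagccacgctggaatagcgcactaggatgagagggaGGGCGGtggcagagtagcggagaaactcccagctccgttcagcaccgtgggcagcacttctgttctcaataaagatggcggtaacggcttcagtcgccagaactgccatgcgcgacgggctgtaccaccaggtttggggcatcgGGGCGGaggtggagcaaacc

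Several of these genes were read by more than 1 probe, and the probes did not always move together. Of 8 genes with at least 2 tested probes, 4 had probes that differed by more than 1 on the log2 scale (Cdh2, Cdh11, Pcdhga9 and Pcdh19). In Pcdhac2 and Pcdhga9 2 probes of 3 rose and the third did not, and in Cdh4 and Fat1 no probe was called. Which probe lies in which exon is not given in the files.

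**Figure D4:**
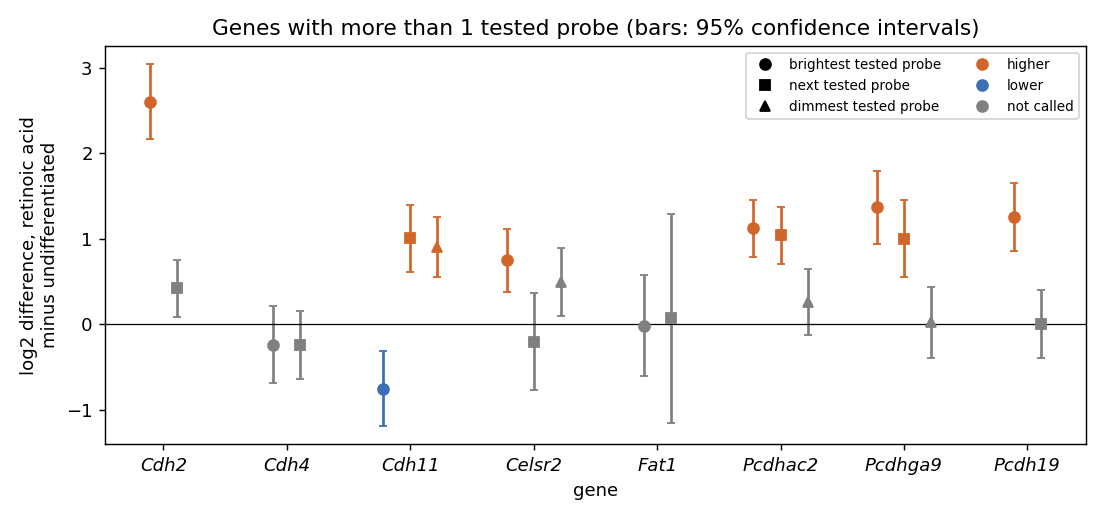
Log2 difference, retinoic acid minus undifferentiated (vertical axis), of each tested probe of the 8 family genes with more than 1 tested probe (horizontal axis); symbols order the probes of a gene by signal, colours give the call and bars are 95% confidence intervals. The Cdh11 probes lie at -0.75, 1.002 and 0.90, and the Pcdh19 probes at 1.25 and 0.00.

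The technical arrays of a sample disagreed more often for these probes than at large, a comparison not matched for signal. Of the 43 tested members 14 were above the limit on all 12 arrays, beside 19608 of the 26587 tested probes. The part of dim signal in these gaps was not tested. The largest gap between the 2 technical arrays of any sample exceeded 1 log2 unit for 8 of the 43 tested members (18.6%), beside 4.58% of all tested genes. The 8 were Cdh13, Pcdhb3, Cdh24, Fat4, Pcdhb21, Pcdhb22, Cdh22 and Pcdh1, and Pcdhb22 is the 1 called gene among them. Undifferentiated replicate 2 was the highest of its group for 26 of the 43 members (60.5%) and for 50% of all tested genes.

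The cytoplasmic partners of classical cadherins were read from a list of 15 catenins and plaque proteins, of which 12 were tested, 4 rose and none was called lower (1 at an unadjusted p under 0.05). Their median difference was 0.56. Of all tested genes, 17.6% were called higher and 12.3% lower, the shares to set beside this list and those below. The lists are small and were not tested as sets, so their counts are no result about a list. Vcl, vinculin, which ties the junction to actin under tension, read 10.62, 10.88 and 10.98 against 12.04, 12.42 and 12.25 (1.41 ± 0.17, adjusted p = 0.0011). Ctnnd2 (delta-catenin, 0.99), Ctnna2 (the neural alpha-catenin, 0.78) and Mllt4 (afadin, 0.64) also rose. Beta-catenin (Ctnnb1) read 13.54, 13.37 and 13.69 against 14.22, 13.89 and 14.01, without overlap but short of the threshold (0.51 ± 0.16, adjusted p = 0.0587). The epithelial alpha-catenin Ctnna1 differed by -0.08, and plakoglobin (Jup) by -1.11 ± 0.45 (adjusted p = 0.114).

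Of 10 desmosomal cadherins and plakins, 3 were tested. Desmoplakin (Dsp) rose from 9.32, 9.75 and 9.43 to 12.57, 12.39 and 12.40 (2.96 ± 0.17, adjusted p = 3.98e-05). Desmocollin 2 (Dsc2) rose from 6.22, 6.18 and 6.10 to 7.92, 7.95 and 8.09 (1.82 ± 0.14, adjusted p = 0.000132), and desmoglein 2 (Dsg2) differed by 0.10 ± 0.15 (adjusted p = 0.685).

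Of 16 genes listed as repressors of Cdh1 and other epithelial regulators, 13 were tested and 5 rose, with 0 called lower by limma (0 at an unadjusted p under 0.05) and a median of 0.54. The 5 were all transcription factors: Twist1 (2.71 ± 0.18), Zeb2 (2.03 ± 0.18), Twist2 (1.77 ± 0.20), Snai2 (1.27 ± 0.30) and Tcf3 (0.95 ± 0.16). Snai1 (0.14, adjusted p = 0.715), Zeb1 (0.54, adjusted p = 0.0631) and the epithelial adhesion molecule Epcam (-0.09, adjusted p = 0.824) were not called. Of 12 regulators of the clustered protocadherin promoters, all tested, 0 were called higher by limma (1 at an unadjusted p under 0.05) and 2 fell. Dnmt3b, a DNA methyltransferase that acts on these promoters in the early embryo, read 11.44, 11.31 and 12.001 against 10.26, 9.42 and 9.67 (-1.80 ± 0.27, adjusted p = 0.00288). Setdb1, a histone methyltransferase, differed by -0.86 ± 0.24 (adjusted p = 0.0381). Ctcf, which loops enhancers to the variable promoters, read 11.41, 11.68 and 11.87 against 11.32, 11.59 and 11.55 (-0.17 ± 0.18, adjusted p = 0.539).

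Of 9 partners of Celsr proteins in planar polarity, all tested, 4 rose and 1 fell, with a median of 0.50. Prickle1 rose from 7.57, 8.24 and 7.23 to 10.89, 10.91 and 10.82 (3.19 ± 0.25, adjusted p = 0.000144). Prickle2 (2.60), Fzd3 (2.02) and Fzd6 (1.66) rose as well, Vangl1 fell (-1.04), and Vangl2 was not called (0.50, adjusted p = 0.139). Among 14 other genes of the cadherin superfamily, 8 were tested: calsyntenin 2 (Clstn2) rose by 1.47 and Cdhr1, a photoreceptor cadherin, fell by 1.57, and the median was -0.22. Of 14 intracellular partners of protocadherins, all tested, 0 were called higher by limma (1 at an unadjusted p under 0.05) and 1 fell, the kinase Ptk2b (-0.90), with a median of -0.06.

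**Figure D5:**
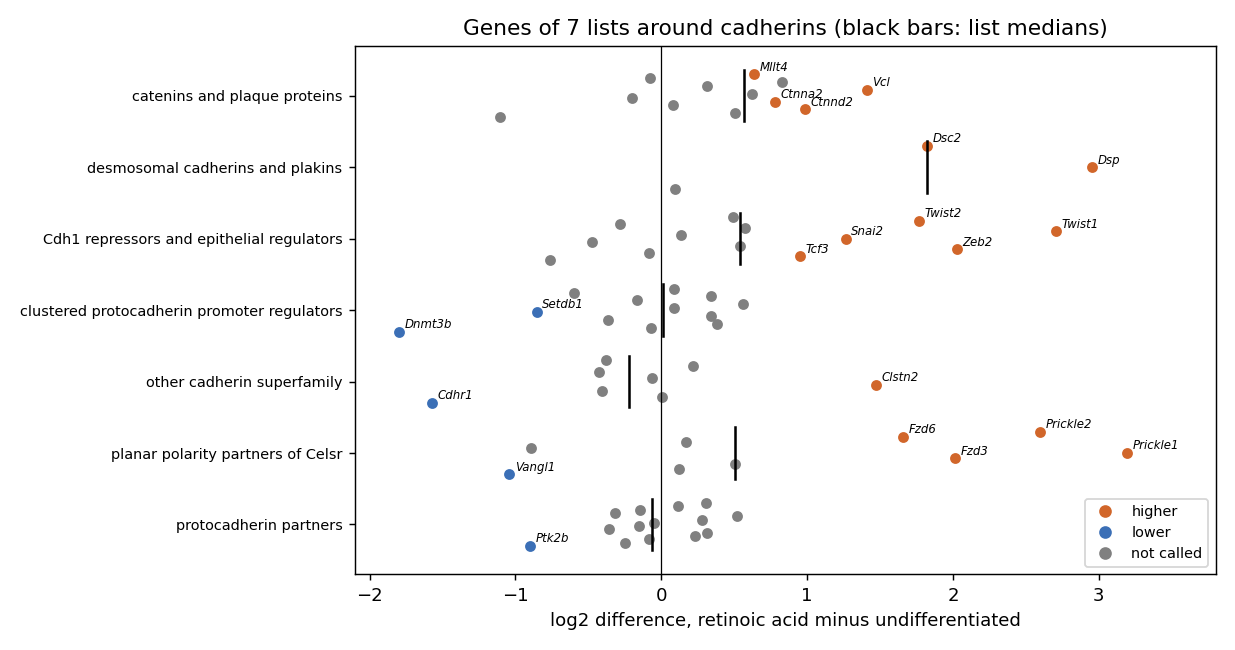
Log2 difference, retinoic acid minus undifferentiated (horizontal axis), of the tested genes of 7 lists around the cadherins (vertical axis; points are spread vertically for legibility only); orange is called higher, blue called lower, grey not called, and black bars are list medians. The medians run from -0.22 (other cadherin superfamily) to 1.82 (desmosomal genes, 3 tested).

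The marker lists checked the labels and the other cell types a culture could hold. Of the 8 pluripotency genes 7 had a probe, and all 7 fell, with a summed net intensity of 76440 to 114200 undifferentiated and 2868 to 3734 after retinoic acid. Of 7 genes of the retinoic acid response 4 rose. Simple epithelium had 4 of its 6 markers called higher and none lower (summed intensity 3884 to 7848 undifferentiated against 64150 to 71300 after retinoic acid). Of 11 feeder fibroblast markers 9 were tested, 5 called higher and 1 lower (summed intensity 6039 to 14930 against 25770 to 32410). Tagln, Col1a2, Pdgfrb, Col3a1 and Dcn rose and Thy1 fell (-2.07). Acta2 (0.91), Col1a1 (-0.38) and Pdgfra (-0.25) were not called, and Lum and Postn were too dim to test. Acta2 (mean net intensity 7892 against 13620) and Tagln (320 against 13310) were the brightest of this list after retinoic acid. The summed intensity of the 9 markers of primitive and visceral endoderm did not overlap between groups either, at 1331 to 2165 undifferentiated and 5523 to 6115 after retinoic acid. Of these 9, Gata6 (4.11), Sox17 (3.78) and Dab2 (1.98) rose and the other 6 were not called. No marker of these 3 lists was below the limit on all arrays, and the part of such cells in the cadherin results was not tested. Of the 7 neural markers with a probe 2 rose and 2 fell. Across arrays the median net intensity of all probes ran from 37.4 to 96.6, the background limit from 8.5 to 51.6, with 53.8% to 85.0% of probes above it; no family probe exceeded 40000, a level close to the brightest spots. The number of arrays limits the precision.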

How the data were processed

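Gene expression was measured on 12 arrays, 6 samples with 2 technical arrays each. Per the file headers, the scanner tables hold linear net mean intensity per spot, background already taken off by the authors' software in a way not stated there. The authors' deposited processed intensity (41173 probes; R 2.15.0 and limma, per the submitters' processing notes) was an alternative; its log2 values correlated at 0.999997 or more with those used here. The header of undifferentiated replicate 2, technical array 2, carries the name of technical array 1.

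The 41174 probes were quantile-normalized with limma 3.58.1 in R 4.3.3, 50 was added and log2 was taken. Technical arrays were averaged, and lmFit and eBayes compared 3 with 3 samples, two-sided, without covariates, with Benjamini-Hochberg adjustment over 26587 probes. The script was tested on simulated data. Figures used Python 3.11.15 and matplotlib 3.10.9. No source used here names a genome build for the array; promoter coordinates are RefSeq's, and sequences of genes not in its promoter table were not used here.

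The members, the lists and the alternatives were chosen with earlier results of these data known. All called members and 11 chosen by name (Cdh1 to Cdh5, Cdh11, Fat1, Fat4 and Celsr1 to Celsr3) were to be named, with the 3 brightest uncalled genes of each class; further genes are named after their values were seen. Alternatives were other scaling, added values, filters, probe choices, technical arrays, variance models, a replicate block, a stricter threshold and each sample left out.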

Additional observations from a re-analysis of the deposited data

How the results depend on the processing

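Over 23 alternatives, the calls of Cdh2, Pcdhac2, Pcdhga9, Pcdh18 and Pcdh19 on their brightest probes were kept wherever the probe was tested. Cdh genes called lower numbered 2 with 75th percentile or median scaling (Cdh1 joined Cdh11) and 0 with the mean of all probes, the second brightest probe, the replicate block or an adjusted p under 0.01. Cdh genes called higher numbered 0 with the filter on all 12 arrays, 1 with the second brightest probe (Cdh11) and 1 with an adjusted p under 0.01 (Cdh2). With its second brightest probe Cdh2 was not called (0.42, adjusted p = 0.0687). Clustered protocadherins called higher numbered 7 with 1 added, 6 with 10 added, 1 with the filter on all 12 arrays (3 genes tested) and 5 with technical array 1 only. Other protocadherins called higher numbered 1 with that filter (Pcdh19, of 2 tested) and 1 with the second brightest probe (Pcdh18). Celsr and Fat genes called higher numbered 0 with the mean of probes, the second brightest probe or an adjusted p under 0.01, and those called lower 0 with the second brightest probe or an adjusted p under 0.01. The direction reversed for Cdh11 with the mean of its probes (0.38) and with its second brightest probe (1.002), and for Celsr2 with its second brightest probe (-0.21); other probes then enter. Leaving out 1 sample gave 1 to 2 Cdh genes called higher, 0 to 1 lower, 0 to 2 Celsr and Fat genes called higher and 0 to 1 lower. The deviations of same-numbered samples of the 2 groups correlated at -0.05, 0.28 and 0.14, those of differently numbered samples at -0.32 to 0.25. Median net intensity was highest in replicate 3 of both groups (67.0 and 67.3 undifferentiated, 96.6 and 93.5 retinoic acid). Whether replicates of the same number share a batch was not tested, and the main fit took the number as no pairing. With the replicate block the Cdh11 difference of -0.75 had an adjusted p of 0.0511 and no other member call changed. Over all probes 3725 were called higher and 3052 lower; 75th percentile scaling gave 3254 and 3731, and median scaling 3174 and 3190. Signal near background limits the dim genes: 30 of 73 could not be tested.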
